A study of Mus musculus with 48 samples.

Results

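The amygdala libraries of 16 wildtype (WT) mice were compared, 8 from mice given fluoxetine (FLX) and 8 from mice given imipramine (IMN), out of 48 libraries in the series. The libraries were assigned to the groups by their sample titles and treatment labels alone. The FLX mice had received 5 mg/kg and the IMN mice 10 mg/kg, so the drug and its dose cannot be told apart. All were female WT animals of a C57BL/6NTac-Brd1 line, 8 to 11 weeks old per the text of the series. Punches of the right amygdala were sequenced after injections on consecutive days and behavioural tests, the last being forced swimming about an hour before tissue collection, per the study's methods. The other groups, again of 8 mice each, were WT mice given saline vehicle and *Brd1*+/- mice, heterozygous for a deletion in *Brd1*, given vehicle, FLX or IMN at the same doses. *Brd1* encodes a chromatin-binding scaffold protein of histone acetyltransferase complexes.

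Fluoxetine is a selective serotonin reuptake inhibitor, which blocks the serotonin transporter encoded by *Slc6a4*. Imipramine is a tricyclic compound that blocks the same transporter and, itself and through its metabolite desipramine, the noradrenaline transporter encoded by *Slc6a2*. Tricyclics also bind histamine H1, muscarinic and alpha1-adrenergic receptors, which fluoxetine binds only weakly. The cell bodies that make serotonin and noradrenaline lie in the brainstem, while the amygdala holds their axon terminals and the receptors of its own neurons and glia. The comparison therefore asks whether 2 antidepressants with a shared and a differing set of targets left different transcript levels in the same region of normal mice.

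Levels are TPM, a unit of transcript abundance that divides the reads of a gene by its length and scales every library to nearly the same sum, and differences are given as FLX minus IMN on the log2(TPM + 0.1) scale. The 16 libraries summed to 999548 to 999746 TPM. Genes above 0 numbered 23464 to 25432 with FLX and 24050 to 25544 with IMN, and this number did not differ by more than the spread between libraries (exact permutation p = 0.452, adjusted p = 0.452 over 3 tests). The share of TPM held by the 100 highest genes was 26.7% ± 1.89 with FLX and 28.0% ± 3.01 with IMN (SD, n = 8 each; exact permutation p = 0.331, adjusted p = 0.452). TPM keep no record of sequencing depth. On the first principal component, which held 29.9% of the variance, IMN replicates 2, 8 and 1 stood apart at 98.4, 90.2 and 56.3, and the other 13 libraries lay between -52.3 and 16.4. Values without IMN replicates 2 and 8 stand beside several results below. The libraries carry sample codes in a lower range, with 3 FLX and 4 IMN libraries, and a higher range, with 5 FLX and 4 IMN libraries. What the codes mean is not stated. Within-range values are given for some of the genes below. The vehicle libraries carry codes outside both ranges, so that vehicle levels and sample codes cannot be told apart. The text of the series names anterior cingulate cortex, caudate putamen and striatum, whereas every sample label gives amygdala, and the labels were followed.

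No gene passed the threshold between FLX and IMN in WT amygdala. Of 23501 genes tested with limma, 0 had an adjusted p under 0.05 (0% called) and the smallest adjusted p was 0.858. At an unadjusted p under 0.01, the nominal threshold of the study, there were 169 genes (0.719% of those tested), 112 with the higher level in FLX (0.477%) and 57 with the higher level in IMN (0.243%). At an unadjusted p under 0.05 there were 1123 genes (4.78%), 842 higher in FLX (3.58%) and 281 higher in IMN (1.20%). Both shares lie under the thresholds themselves. By sign alone 60.5% of genes were higher in FLX, with a median log2 difference of 0.05. With a median-ratio scaling 48.8% of genes were higher in FLX. That scaling brings the median difference near 0 by construction (-0.0059), so its share does not test the imbalance. The imbalance depended on IMN replicates 2 and 8, without which the share was 51.3%. Among genes with an unadjusted p under 0.01 the split of 112 against 57 became 64 against 86 with the median-ratio scaling.

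The intervals show how large a difference remained possible. Among 13400 multi-exon protein-coding genes of at least 1 TPM, the 95% interval of the log2 difference had a median half-width of 0.33, and for 11067 of them (82.6%) the whole interval lay within 1 log2 unit of 0. For 7133 (53.2%) it lay within 0.5. A difference of more than 2-fold between the drugs was thus outside the interval for most genes of this class, while smaller differences were within it for many. The plot of all genes shows the leading genes of both directions against this background.

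**Figure D1:**
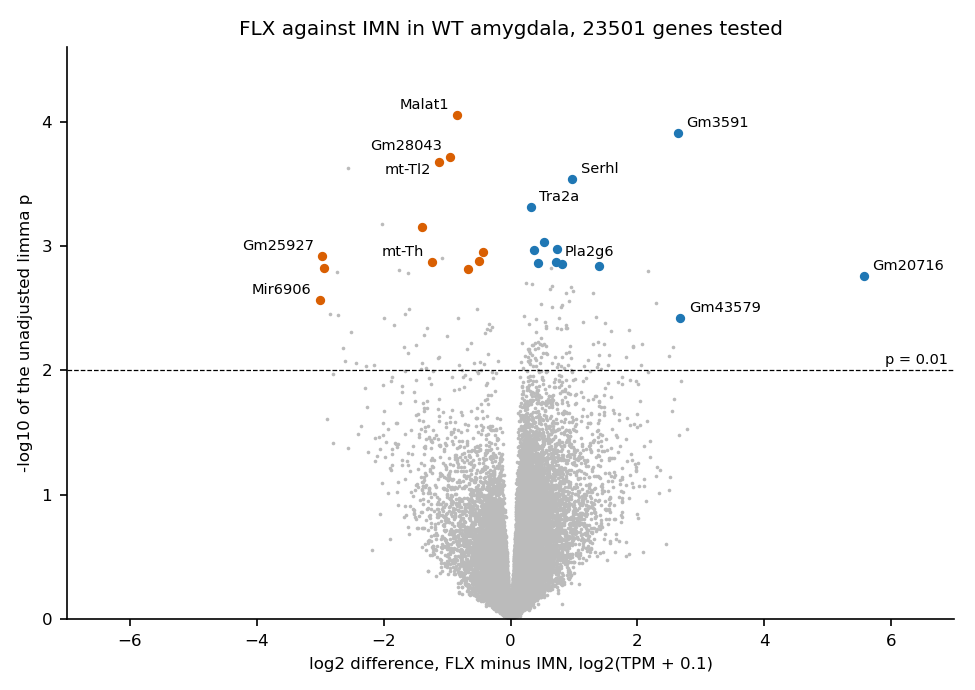
Each point is 1 of the 23501 genes tested in WT amygdala; the x axis is the log2 difference FLX minus IMN on log2(TPM + 0.1), positive where FLX was higher, and the y axis is -log10 of the unadjusted limma p. Coloured points are the leading genes (blue, FLX higher; orange, IMN higher), the dashed line marks 0.01, and the highest point is *Malat1*, at a log2 difference of -0.84.

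Of the 10 leading genes with the higher level in IMN, 8 were noncoding RNAs or pseudogenes. The smallest p of all genes tested belonged to *Malat1*, an abundant long noncoding RNA kept in the nucleus, and 4 of the 10 leading genes of this direction were mitochondrial tRNAs, short RNAs that carry amino acids to the ribosomes inside mitochondria. Mitochondrial tRNAs are cut out of long transcripts of the mitochondrial genome, in which they lie between the mRNAs. The 4 tRNAs are shown because they are among the 10 leading genes of this direction, with the anticodon that reads the codon in capitals. None of them had an adjusted p under 0.05 over the 16 libraries. Whether the reads came from the finished tRNAs or from the long transcripts was not tested. The sequences are those of the GENCODE M21 transcripts on GRCm38, all on the plus strand of the mitochondrial genome.
mt-Tg: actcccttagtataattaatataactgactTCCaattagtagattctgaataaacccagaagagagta
mt-Tr: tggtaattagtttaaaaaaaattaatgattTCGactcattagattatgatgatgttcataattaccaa
mt-Th: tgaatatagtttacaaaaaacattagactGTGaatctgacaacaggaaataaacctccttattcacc
mt-Tl2: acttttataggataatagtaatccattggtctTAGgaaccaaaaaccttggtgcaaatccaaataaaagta

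*mt-Tg* (chrM:9391-9458) carries glycine, *mt-Tr* (chrM:9808-9875) arginine, *mt-Th* (chrM:11546-11612) histidine and *mt-Tl2* (chrM:11671-11741) leucine. They are 67 to 71 bases long. Such short genes receive large TPM values from few reads.

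*Malat1* (chr19:5795690-5802672, minus strand) ranged over 159, 198 and 344 TPM with FLX (lowest, median, highest) and over 305, 388 and 513 TPM with IMN. Vehicle mice had a median of 255 TPM. With means of 228 ± 70.6 and 398 ± 68.5 TPM (SD, n = 8 each) the log2 difference was -0.84 (95% interval -1.18 to -0.49, limma unadjusted p = 8.91e-05, adjusted p = 0.858). The ranges overlapped, since 6 of 8 FLX libraries lay under the lowest IMN library and all 8 under the IMN median. Of the 10 listed nuclear-retained noncoding RNAs, *Malat1* among them, 7 were higher in FLX by sign (median 0.11), beside 60.5% of all genes. *Malat1* was the only one of them with a limma unadjusted p under 0.05. *mt-Tl2* had 49.7, 74.0 and 198 TPM with FLX and 162, 187 and 224 TPM with IMN, against a vehicle median of 104 TPM (log2 difference -1.13, interval -1.63 to -0.62, limma unadjusted p = 2.10e-04). *mt-Th* had 16.7, 25.7 and 76.1 TPM with FLX and 63.9, 74.5 and 93.4 TPM with IMN, against a vehicle median of 35.2 TPM (log2 difference -1.24, interval -1.91 to -0.56, limma unadjusted p = 0.00134). In both, 7 of 8 FLX libraries lay under the IMN median and the vehicle median lay on the FLX side. *mt-Tr* (medians 59.6 and 80.4 TPM, log2 difference -0.50, limma unadjusted p = 0.00132) and *mt-Tg* (medians 40.6 and 69.5 TPM, log2 difference -0.68, limma unadjusted p = 0.00152) differed in the same direction by less.

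The differences of *Malat1*, *mt-Th* and *mt-Tl2* were larger in the higher range of sample codes. There the 5 FLX libraries had 158.6 to 204 TPM of *Malat1* and the 4 IMN libraries 341 to 513 TPM (log2 difference -1.19, limma unadjusted p = 9.94e-06, adjusted p = 0.0584). In the lower range the 3 FLX libraries had 269 to 344 TPM and the 4 IMN libraries 305 to 442.1 TPM (log2 difference -0.30, adjusted p = 0.999). The IMN libraries of both ranges overlapped and the FLX libraries did not. *mt-Th* was at 16.7 to 31.0 TPM in the 5 FLX libraries of the higher range and at 65.0 to 76.1 TPM in the 3 of the lower range, where IMN had 63.9 to 93.4 TPM. Its log2 difference was -1.89 in the higher range (limma adjusted p = 0.0248) and -0.14 in the lower (adjusted p = 0.999). *mt-Tl2* gave -1.61 (limma adjusted p = 0.0203) and -0.33 (adjusted p = 0.999). Whether the drug difference itself differed between the ranges was tested in the 16 libraries, with 0 genes at an adjusted p under 0.05, 666 at an unadjusted p under 0.05 and a smallest adjusted p of 0.279, which was that of *mt-Th* (difference of the log2 differences -1.74, limma unadjusted p = 1.19e-05). The part of the sample codes in the differences of *Malat1*, *mt-Th* and *mt-Tl2* was not tested further, since no label says what they mark. *mt-Tg* (-0.80 in the higher and -0.40 in the lower range) and *mt-Tr* (-0.61 and -0.33) had the same direction in both ranges.

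**Figure D2:**
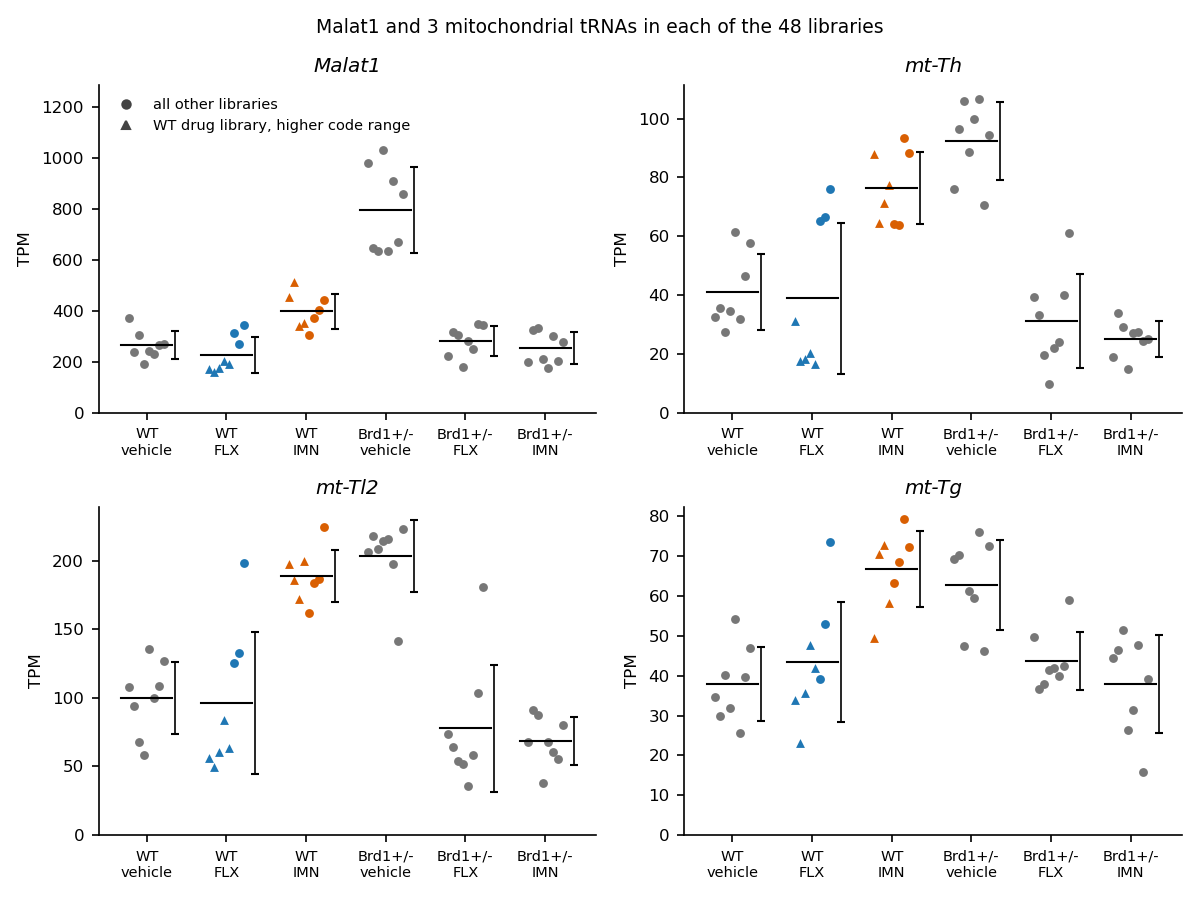
TPM (y axis) of *Malat1*, *mt-Th*, *mt-Tl2* and *mt-Tg* in each of the 48 libraries by genotype and treatment (x axis); points are libraries, the bar is the mean and the whisker the SD of 8, and triangles mark WT drug libraries of the higher range of sample codes. The 5 WT FLX triangles of *mt-Th* lie at 16.7 to 31.0 TPM while the 3 WT FLX circles, at 65.0 to 76.1 TPM, lie among the IMN libraries.

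The class of the 22 mitochondrial tRNAs was examined after the values of its leading genes were seen. Its counts include *mt-Tg*, *mt-Tr*, *mt-Th* and *mt-Tl2* again and are not independent of them. Of all genes tested, 0.243% were higher in IMN at an unadjusted p under 0.01 and 1.20% at one under 0.05. All 22 tRNAs were tested, and 19 were higher in IMN by sign. Among them 5 had an unadjusted p under 0.01 and 6 under 0.05, all 6 with the higher level in IMN. The 2 not yet given, *mt-Tt* (carrying threonine, log2 difference -0.41, limma unadjusted p = 0.00504) and *mt-Ts2* (carrying serine, -0.52, limma unadjusted p = 0.0242), were chosen after their values were seen. The 5 tRNAs *mt-Tg*, *mt-Tr*, *mt-Th*, *mt-Ts2* and *mt-Tl2* follow each other in the genome on the plus strand, with only mRNAs between them, and had the 5 largest differences of the 22 over the 16 libraries. This order did not hold in the lower range of sample codes, where *mt-Ts2* was at 0.06 and *mt-Th* at -0.14, and where *mt-Tt* (-0.49) and *mt-Td* (-0.47), which was chosen after its values were seen, exceeded all 5 in size. The median over all 22 was -0.11, and their summed level was 6767, 7454 and 8791 TPM with FLX and 6529, 8094 and 9623 TPM with IMN (lowest, median, highest), with overlapping ranges. The 13 mitochondrially encoded mRNAs, which encode subunits of the respiratory chain and the ATP synthase, were higher in IMN by sign in 12 cases. Their median of -0.08 became 0.04 without IMN replicates 2 and 8. It was 0.0048 with quantile normalization and -0.14 with the median-ratio scaling. Only *mt-Atp6*, a subunit of the ATP synthase that shares bases with *mt-Atp8*, had an unadjusted p under 0.05, with 4318, 8456 and 12361 TPM with FLX and 9329, 10404 and 15106 TPM with IMN (log2 difference -0.54, limma unadjusted p = 0.0280). In *Brd1*+/- mice the 22 tRNAs had a median of 0.03, 1 at an unadjusted p under 0.05 in each direction.

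**Figure D3:**
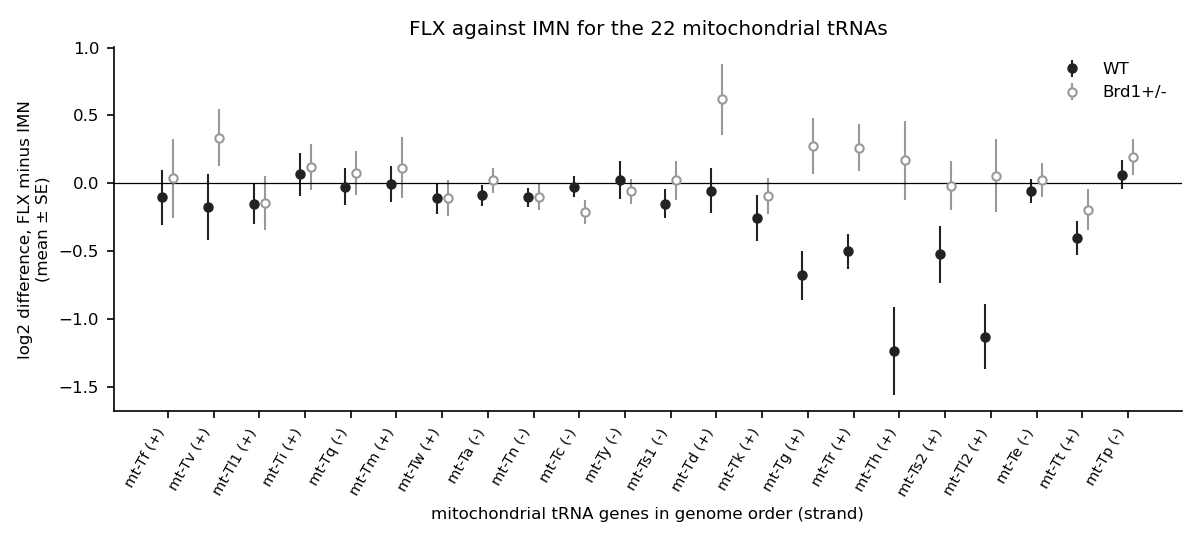
Log2 difference FLX minus IMN (y axis, estimate ± SE, 8 against 8 libraries) for the 22 mitochondrial tRNA genes in genome order with their strand (x axis); filled points are WT mice and open points *Brd1*+/- mice. In WT mice the run from *mt-Tg* to *mt-Tl2* lies between -0.50 and -1.24, while the same 5 genes lie between -0.02 and 0.27 in *Brd1*+/- mice.

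The other leading genes with the higher level in IMN included *Zrsr2*, a component of the minor spliceosome, with 29.8, 40.4 and 53.5 TPM with FLX and 47.4, 53.2 and 58.3 TPM with IMN (log2 difference -0.44, limma unadjusted p = 0.00112). It was the only multi-exon protein-coding gene of the 10 that shares no exonic bases with another gene. *Gm28043*, a read-through gene that shares exonic bases with *Rnf8*, was at 3.79 to 4.98 TPM in 7 FLX libraries and at 9.66 TPM in FLX replicate 8, and at 8.61 to 12.1 TPM in 7 IMN libraries and at 4.99 TPM in IMN replicate 6 (log2 difference -0.95, limma unadjusted p = 1.91e-04). Its levels thus fell into a low and a high set that 14 of the 16 libraries followed by drug, with a difference of -0.48 in the lower and -1.28 in the higher range of sample codes, and the division of reads between it and *Rnf8* is uncertain. The rest were the pseudogene *Gm11960* (log2 difference -1.39) and the miRNA genes *Gm25927* (-2.97) and *Gm24325* (-2.94), and by size of difference *Mir6906* (-3.01), which lies in an intron of *Spock2*. All 3 miRNA genes had medians under 6 TPM with either drug, and *Gm25927* was listed at 0 in 4 and *Gm24325* in 6 FLX libraries, so their fitted differences depend on the pseudocount. Of 488 miRNA genes tested, 12 had an unadjusted p under 0.01 (2.46%, against 0.719% of all genes), 4 higher in FLX and 8 higher in IMN.

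Of the 112 genes with the higher level in FLX at an unadjusted p under 0.01, 75 were multi-exon protein-coding, as were 16 of the 57 of the other direction and 62.0% of all genes tested. *Tra2a*, a regulator of splicing, ranged from 111 to 158 TPM with FLX (mean 136.4 ± 15.5) and from 98.2 to 123.9 TPM with IMN (mean 108.8), against a vehicle median of 112 TPM (log2 difference 0.32, interval 0.16 to 0.48, limma unadjusted p = 4.89e-04). *Serhl*, a serine hydrolase-like gene antisense to *Rrp7a*, had 6.19, 9.78 and 14.6 TPM with FLX and 2.94, 5.03 and 8.20 TPM with IMN (log2 difference 0.97, limma unadjusted p = 2.91e-04). Its vehicle median, 9.11 TPM, lay on the FLX side, whereas that of *Tra2a* lay on the IMN side. *Pla2g6*, a calcium-independent phospholipase A2 of membrane turnover, had 20.7, 32.3 and 43.2 TPM with FLX and 11.5, 19.9 and 27.8 TPM with IMN (log2 difference 0.72, interval 0.32 to 1.12, limma unadjusted p = 0.00135). It was alike in both ranges of sample codes, at 0.66 and 0.76, and 5 of its 8 FLX libraries exceeded every IMN library.

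*Ccnd3*, which encodes the cell-cycle protein cyclin D3 and overlaps *Bysl* on the other strand, had medians of 25.4 and 19.8 TPM (log2 difference 0.53, limma unadjusted p = 9.32e-04). *Mrps23*, a protein of the small subunit of the mitochondrial ribosome, had medians of 27.8 and 22.05 TPM (log2 difference 0.37, limma unadjusted p = 0.00108). *Ankzf1*, which acts in the quality control of stalled ribosomes and overlaps *Atg9a* on the other strand, had medians of 50.8 and 36.2 TPM (log2 difference 0.44, limma unadjusted p = 0.00136). In all 3, every FLX library lay above the IMN median. The remaining leading genes were of low level or uncertain assignment. *Gm3591* was above 0 in all 8 FLX and in 2 IMN libraries, at 0.675 to 1.65 TPM with FLX (log2 difference 2.64, or 0.79 with a pseudocount of 1, limma unadjusted p = 1.23e-04). *Gm44899* (log2 difference 0.74), *4930577N17Rik* (0.81) and *A730020M07Rik* (1.39) are noncoding or unclassified and had FLX medians of 4.73, 1.92 and 2.31 TPM. The largest difference, 5.57, or 3.51 with a pseudocount of 1, was that of *Gm20716*, which shares exonic bases with *Adnp* and was listed at 0 in 1 FLX and 6 IMN libraries, with the others between 12.3 and 71.1 TPM and between 14.6 and 14.9 TPM. *Gm43579*, antisense to *Ddx54*, was listed at 0 in 1 FLX and 5 IMN libraries (log2 difference 2.68, or 1.11 with a pseudocount of 1).

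In 3 genes (0.0128% of those tested) the 8 FLX and the 8 IMN libraries did not overlap, all 3 with the higher level in FLX. They were chosen after their values were seen. Chance alone separates the 8 from the 8 libraries of a gene with a probability of 1.55e-04, which the share of 0.0128% did not exceed. *Glrx3*, a glutaredoxin that takes part in iron and iron-sulfur handling, had 69.0, 73.6 and 80.6 TPM with FLX and 50.7, 62.4 and 68.9 TPM with IMN (log2 difference 0.25, limma unadjusted p = 0.00197). *Rdh10*, a retinol dehydrogenase of retinoic acid synthesis, had 9.15, 9.86 and 12.5 TPM and 4.59, 8.25 and 9.05 TPM (log2 difference 0.43, limma unadjusted p = 0.00596). *Ocln*, a protein of tight junctions, had 3.24, 3.99 and 7.29 TPM and 2.13, 3.02 and 3.24 TPM (log2 difference 0.56, limma unadjusted p = 0.00634). In each of the 3 genes the nearest libraries of the groups differed by less than 0.1 TPM, and the vehicle libraries spanned values of both groups.

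The direct targets of the drugs were next examined. *Slc6a4*, the serotonin transporter, was listed at 0 in 6 FLX and all 8 IMN libraries with a highest level of 0.320 TPM, and *Slc6a2*, the noradrenaline transporter, was listed at 0 in 7 libraries of each group with a highest level of 0.236 TPM. Neither was tested. *Hrh1*, the histamine H1 receptor, had 7.25, 11.96 and 24.1 TPM with FLX and 3.42, 7.63 and 14.3 TPM with IMN, against a vehicle median of 6.75 TPM (log2 difference 0.77, interval 0.19 to 1.34, limma unadjusted p = 0.0120). Of the 8 FLX libraries 7 lay above the IMN median, though the ranges overlapped, and the difference was 1.24 in the lower and 0.43 in the higher range of sample codes. *Adra1a*, an alpha1-adrenergic receptor, had medians of 10.5 and 7.54 TPM (log2 difference 0.25, interval -0.32 to 0.82, limma unadjusted p = 0.370) and *Chrm1*, the muscarinic M1 receptor, 24.6 and 37.9 TPM (-0.68, interval -2.12 to 0.75, limma unadjusted p = 0.329). *Chrm1* was at -0.26 without FLX replicate 1 and at -0.34 without IMN replicates 2 and 8, and *Adra1a* at 0.11 without IMN replicate 2. The serotonin receptor *Htr2c*, the most abundant of the named serotonin receptors, had medians of 70.1 and 61.2 TPM (0.35, interval -0.30 to 1.00, limma unadjusted p = 0.276), with 0.14 without IMN replicate 2. *Htr2a* had 7.18, 9.56 and 12.6 TPM with FLX and 2.71, 9.02 and 36.8 TPM with IMN (-0.23, interval -1.15 to 0.69, limma unadjusted p = 0.605), with the 3 highest values, 27.0, 26.5 and 36.8 TPM, in IMN replicates 1, 2 and 8. Without replicates 2 and 8 its difference was 0.27.

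The lists of related genes are described by counts and medians beside those of all genes, for which 3.58% were higher in FLX and 1.20% higher in IMN at an unadjusted p under 0.05 and the median was 0.05. No gene of any list had an adjusted p under 0.05, and the lists overlap in some members. Of 14 genes for monoamine transport, synthesis and breakdown 11 were tested and 0 had an unadjusted p under 0.05 (median 0.13). The smallest p was that of *Slc29a4*, a low-affinity monoamine transporter (medians 22.2 and 19.3 TPM, log2 difference 0.96, or 0.23 without IMN replicates 2 and 8, limma unadjusted p = 0.0638). The 12 serotonin receptors tested divided evenly by sign, 6 and 6, with 0 at an unadjusted p under 0.05 and *Htr7* first (medians 13.9 and 9.01 TPM, log2 difference 0.79, or 0.18 without those libraries, limma unadjusted p = 0.0887). None of 9 adrenergic receptors (median -0.11) and none of 4 tested dopamine receptors (median -0.55) had an unadjusted p under 0.05 with limma. Of 8 histamine and muscarinic receptors 1 was higher in FLX, *Hrh1*, and 1 higher in IMN, *Chrm3*, the muscarinic M3 receptor, with medians of 20.3 and 30.4 TPM (log2 difference -0.55, interval -1.02 to -0.08, limma unadjusted p = 0.0243). Its difference was -0.04 in the lower and -0.91 in the higher range of sample codes. The median of these 8 was -0.11.

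Genes that respond to neuronal activity did not separate the drugs as a group. Immediate-early transcription factors are switched on within minutes of stimulation without new protein synthesis. Of 18, 17 were tested, 11 were higher in FLX by sign (median 0.07, and -0.0053 with quantile normalization), and 1 had an unadjusted p under 0.05. This was *Nr4a2*, a nuclear receptor, with 2.44, 4.19 and 20.9 TPM with FLX and 3.15, 12.1 and 113 TPM with IMN (log2 difference -1.81, interval -3.38 to -0.24, limma unadjusted p = 0.0264). Its 3 highest values, 113, 105 and 51.4 TPM, were those of IMN replicates 1, 2 and 8, the libraries that stood apart on the first principal component. Its difference was -1.11 without replicates 2 and 8, -0.53 in the lower and -2.74 in the higher range of sample codes. *Fos* had 17.1, 31.2 and 56.6 TPM with FLX and 4.40, 23.7 and 38.5 TPM with IMN, both under the vehicle median of 50.4 TPM (log2 difference 0.66, interval -0.11 to 1.42, or 0.20 without IMN replicates 2 and 8, limma unadjusted p = 0.0889). *Junb*, the gene not tested, was listed at 0 in all 8 FLX and in 5 IMN libraries, and in 3 vehicle libraries. A listed 0 in such a gene can be a failed estimate. Of 24 activity-induced effectors, such as phosphatases and secreted factors, 12 were higher with each drug by sign, 0 had an unadjusted p under 0.05 and the median was -8.63e-05. Their summed level was 613, 820 and 1126 TPM with FLX and 701, 812 and 1129 TPM with IMN.

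Stress-hormone and protein-folding genes are given beside the 60.5% of all genes that were higher in FLX by sign on the TPM scale. With the median-ratio scaling that share was 48.8%, and the signs of the lists were not recounted with it. Glucocorticoids act through the glucocorticoid receptor, which binds DNA and raises metallothioneins and metabolic enzymes among others. Of 18 genes of glucocorticoid and corticotropin-releasing hormone (CRH) signalling 15 were higher in FLX by sign (median 0.29, and 0.08 without IMN replicates 2 and 8), and 2 had an unadjusted p under 0.05. These were *Mt2*, a metal-binding metallothionein, with 329, 417 and 484 TPM with FLX and 236, 302 and 484 TPM with IMN (log2 difference 0.40, interval 0.09 to 0.71, limma unadjusted p = 0.0136), and *Sult1a1*, a sulfotransferase (log2 difference 0.35, limma unadjusted p = 0.0376). *Crh* itself had medians of 17.1 and 9.35 TPM (log2 difference 0.81, interval -0.22 to 1.84, or 0.29 without IMN replicates 2 and 8, limma unadjusted p = 0.114). The unfolded protein response raises chaperones of the endoplasmic reticulum when folding there is overloaded, and 17 of its 19 genes were higher in FLX by sign (median 0.17, and 0.04 without IMN replicates 2 and 8, and -0.02 in the lower range of sample codes alone). Of these *Creld2* (medians 26.4 and 21.6 TPM, log2 difference 0.32, limma unadjusted p = 0.0187) and *Herpud1* (75.1 and 69.8 TPM, 0.35, or 0.16 without those libraries, limma unadjusted p = 0.0487) had an unadjusted p under 0.05. Both encode proteins of the endoplasmic reticulum. Of 12 cytosolic heat-shock genes 9 were higher in FLX by sign (median 0.15, and 0.04 without those libraries), and *Hspb1* (medians 12.8 and 7.85 TPM, log2 difference 0.65, limma unadjusted p = 0.0162) and *Dnajb1* (45.4 and 40.4 TPM, 0.29, limma unadjusted p = 0.0380), a small heat-shock protein and a co-chaperone, had an unadjusted p under 0.05.

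Many cationic drugs of this kind raise sterol synthesis genes in cultured cells, and the 24 genes of cholesterol synthesis and uptake were 15 higher in FLX and 9 in IMN by sign, with 0 at an unadjusted p under 0.05 and a median of 0.02, or -0.04 with the median-ratio scaling. *Insig1*, which holds the sterol sensor in the endoplasmic reticulum, had 48.7, 62.7 and 69.5 TPM with FLX and 33.0, 51.1 and 73.7 TPM with IMN (log2 difference 0.24, interval -0.04 to 0.51, limma unadjusted p = 0.0908). Of 18 circadian clock genes 1 was higher in FLX, the nuclear receptor *Rora* (medians 13.9 and 10.3 TPM, log2 difference 0.33, with 0.63 in the lower and 0.08 in the higher range of sample codes, limma unadjusted p = 0.0399), and 1 higher in IMN, the clock output factor *Tef* (202 and 255 TPM, -0.32, limma unadjusted p = 0.0435), with a median of -0.03.

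Receptors of fast transmission and peptides of the amygdala varied widely between libraries. Of 18 GABA-A and glycine receptor genes 1 had an unadjusted p under 0.05, *Glra1*, a glycine receptor subunit of brainstem and spinal cord, with 2.18, 10.9 and 36.4 TPM with FLX and 0, 4.74 and 22.9 TPM with IMN (log2 difference 2.66, interval 0.24 to 5.09, or 1.35 without IMN replicates 2 and 8, limma unadjusted p = 0.0332). The median of the list was 0.12, or -0.05 without IMN replicates 2 and 8. The 10 AMPA and NMDA receptor subunits had a median of -0.08 and the 16 neuropeptide and central amygdala genes one of -0.13. Each list had 0 genes at an unadjusted p under 0.05 with limma. Among drug-treated libraries the summed neuropeptide list was highest in IMN replicates 2 and 8, at 6374 and 7101 TPM. It reached at most 3429 TPM in the other IMN libraries and 3337 TPM with FLX. *Sst*, the peptide somatostatin, had 151, 539 and 1035 TPM with FLX and 518, 720 and 1193 TPM with IMN (log2 difference -0.58, interval -1.28 to 0.12, limma unadjusted p = 0.1004). *Slc17a6*, the vesicular glutamate transporter of subcortical excitatory neurons, had 4.33, 82.8 and 143 TPM and 3.39, 24.5 and 127.6 TPM (1.15, interval -0.58 to 2.89, or 0.30 without IMN replicates 2 and 8, limma unadjusted p = 0.179). Its range within each group was wider than the difference between them. The 12 genes of transmitter identity, among them *Slc17a6*, divided 6 and 6 by sign.

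**Figure D4:**
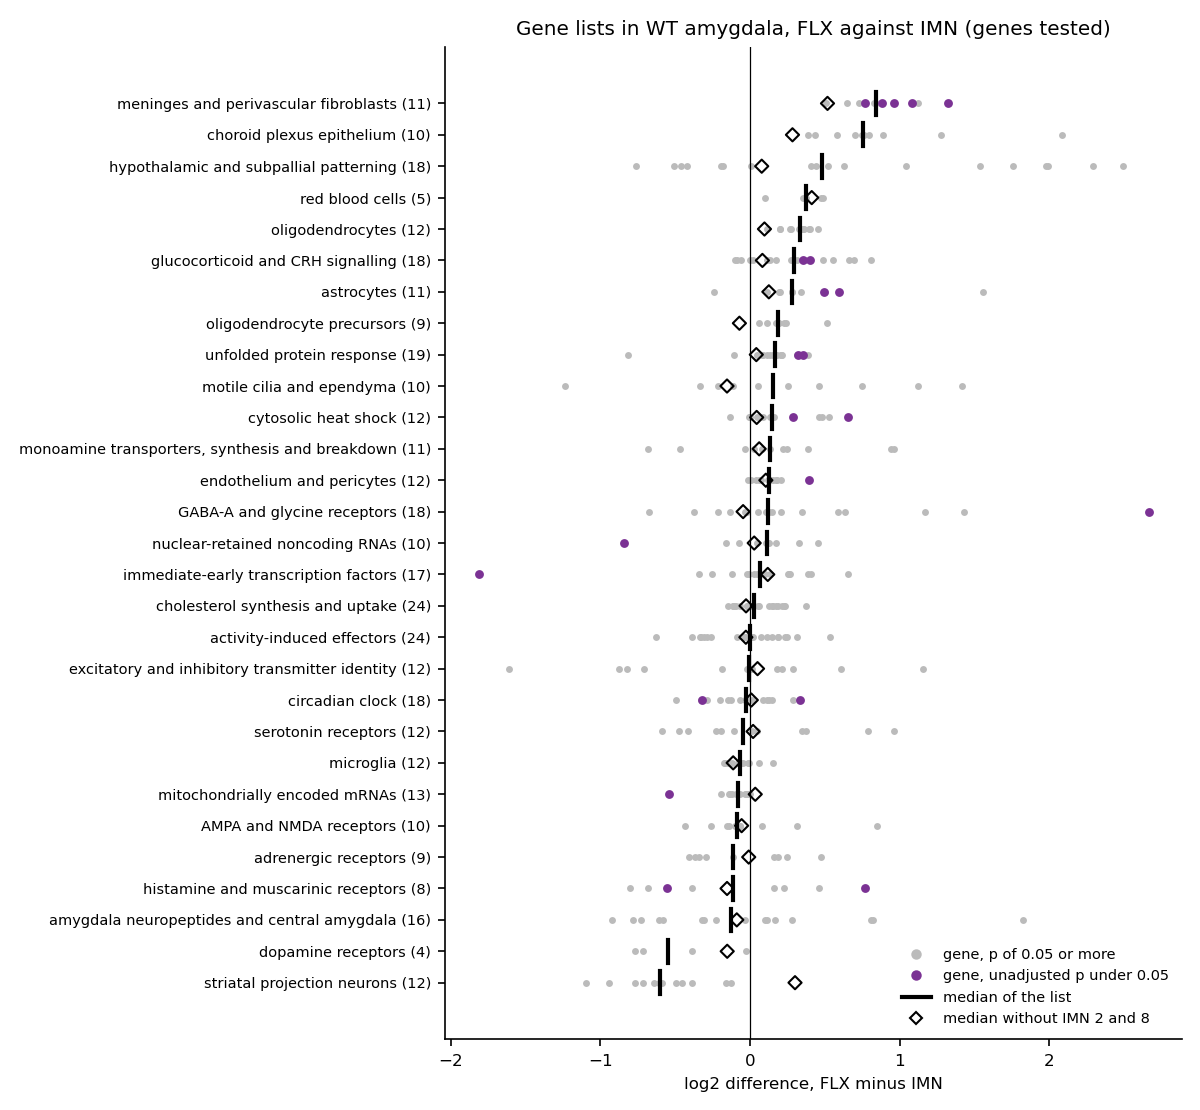
Log2 difference FLX minus IMN in WT amygdala (x axis) of each tested gene of 29 lists (y axis, number tested in brackets, ordered by median); purple points have an unadjusted limma p under 0.05, bars are list medians and diamonds the medians without IMN replicates 2 and 8. The list of meningeal and perivascular fibroblast markers has the highest median, 0.84, and 5 purple points, and the striatal list moves from -0.60 to 0.30 when the 2 libraries are left out.

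Markers of neighbouring tissue and of glia differed between libraries, and these values stand beside the results above since a punch can hold more or less of each. In bulk tissue fewer cells of a type and less RNA per cell cannot be told apart. *Sst*, *Crh* and *Slc17a6* were above 0 in all 16 libraries, which does not tell the amygdala from regions beside it. All 12 markers of striatal projection neurons, which lie beside the amygdala, were higher in IMN by sign (median -0.60, 0 at an unadjusted p under 0.05). Their summed level was 285, 474 and 2533 TPM with FLX and 285, 661 and 7746 TPM with IMN, and the highest values, 7398 and 7746 TPM, were those of IMN replicates 2 and 8. Without these 2 libraries the median was 0.30. The 18 tested genes of hypothalamic and subpallial patterning had a median of 0.48, or 0.08 without the 2 libraries, and a summed level of 91.9, 218 and 285 TPM with FLX and 87.0, 217 and 261 TPM with IMN.

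Of the glial lists, all 12 oligodendrocyte markers were higher in FLX by sign (median 0.33, and 0.10 without IMN replicates 2 and 8), with 0 at an unadjusted p under 0.05 and summed levels of 2030, 5972 and 8804 TPM with FLX and 1412, 3427 and 11405 TPM with IMN. All 9 markers of oligodendrocyte precursors were likewise higher in FLX by sign (median 0.19, and -0.07 without them). Of 11 astrocyte markers 10 were higher in FLX by sign (median 0.28, and 0.13 without IMN replicates 2 and 8). Of these *Gjb6*, the gap-junction protein connexin 30 (medians 134.6 and 97.8 TPM, log2 difference 0.59, limma unadjusted p = 0.0170), and *Fgfr3*, a growth factor receptor (87.1 and 71.6 TPM, 0.49, limma unadjusted p = 0.0294), had an unadjusted p under 0.05. The 12 microglial markers had a median of -0.07 and 0 at an unadjusted p under 0.05 with limma. Of 12 endothelial and pericyte markers 11 were higher in FLX by sign (median 0.13), and *Ly6c1*, an endothelial surface protein, had 53.5, 67.0 and 91.8 TPM with FLX and 36.8, 54.8 and 68.3 TPM with IMN (log2 difference 0.39, interval 0.13 to 0.66, limma unadjusted p = 0.00607). All 5 tested red blood cell genes were higher in FLX by sign (median 0.38), and the 10 tested genes of motile cilia and ependyma had a median of 0.15, or -0.15 without IMN replicates 2 and 8, both with 0 at an unadjusted p under 0.05.

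The largest median of the 29 lists was that of meningeal and perivascular fibroblast markers, which make collagen and proteoglycans around the brain and its vessels. All 11 were higher in FLX by sign, 5 of them with an unadjusted p under 0.05, and the median was 0.84, or 0.52 without IMN replicates 2 and 8. *Dcn*, the proteoglycan decorin, had 8.58, 14.0 and 35.1 TPM with FLX and 3.12, 8.86 and 17.7 TPM with IMN (log2 difference 0.96, interval 0.13 to 1.79, limma unadjusted p = 0.0259). *Lum*, lumican, had a difference of 0.88 (limma unadjusted p = 0.0301) and *Ogn*, osteoglycin, of 1.32 (limma unadjusted p = 0.0364). The other 2, chosen after their values were seen, were the collagen gene *Col1a2* (0.77, limma unadjusted p = 0.0388) and *Ptgds*, a prostaglandin D synthase (1.08, limma unadjusted p = 0.0492). Their medians were alike in the lower and the higher range of sample codes, 0.83 and 0.90. The summed level of the 11 was 395, 1073 and 4775 TPM with FLX and 193, 581 and 1309 TPM with IMN, so that the ranges overlapped, and vehicle libraries had a median of 361 TPM. With FLX this sum was mostly *Ptgds*, which had 4541 of the 4775 TPM in FLX replicate 6. In the other FLX libraries *Ptgds* had a median of 969 TPM and the list one of 1027 TPM. The 10 tested choroid plexus markers were all higher in FLX by sign (median 0.76, and 0.28 without IMN replicates 2 and 8, with 0 at an unadjusted p under 0.05), with a summed level of 10568 TPM in FLX replicate 2 and 1502 TPM in IMN replicate 1 and of 101 to 349 TPM in the other 14 libraries. The part of these marker levels in the differences between the drugs was not tested beyond a fit with 4 marker lists as covariates. These were the striatal, oligodendrocyte, choroid plexus and patterning lists, so the meningeal list was not adjusted for. In this fit 0 genes had a limma adjusted p under 0.05 (smallest 0.118). An unadjusted p under 0.01 was found for 1.74%, 314 genes higher in FLX and 94 higher in IMN.

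**Figure D5:**
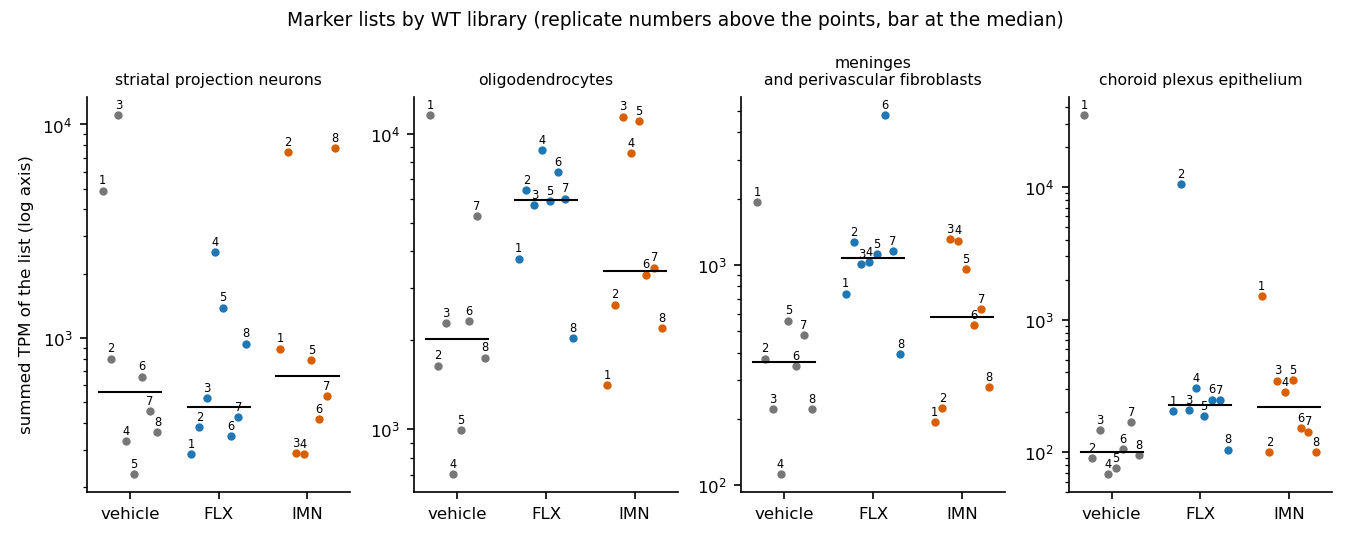
Summed TPM (y axis, log scale) of 4 marker lists in each WT library by treatment (x axis); points are libraries with their replicate number and the bar is the median of 8. IMN replicates 2 and 8 hold the highest striatal levels of the drug-treated libraries, 7398 and 7746 TPM, and FLX replicate 2 the highest choroid plexus level of them, 10568 TPM.

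The same contrast in *Brd1*+/- mice is set beside the WT values. Of 23724 genes tested there with limma, 0 had an adjusted p under 0.05 (smallest 0.656), 109 had an unadjusted p under 0.01 (0.459%) and 709 under 0.05 (2.99%, of which 1.28% higher in FLX and 1.71% higher in IMN). Of the 169 WT genes with p under 0.01, 158 were tested in *Brd1*+/- mice, and 68 of these (43.0%) had the same direction, against 48.8% of all 22894 genes tested in both. Signed by their WT direction, they had a median of 0.78 in WT mice, which their choice fixed, and of -0.03 in *Brd1*+/- mice. Whether the drug difference itself differed by genotype was tested with limma in 26162 genes, with 0 at an adjusted p under 0.05 (smallest 0.282). At an unadjusted p under 0.01 there were 185 genes (0.707%). The FLX minus IMN difference was more positive in *Brd1*+/- than in WT mice for 0.287% and more negative for 0.420%. At an unadjusted p under 0.05 there were 1115 genes (4.26%), 1.47% more positive and 2.79% more negative in this sense. *Malat1*, whose WT difference was -0.84, had 0.16 in *Brd1*+/- mice (means of 281 and 253 TPM). *mt-Tl2* (0.06), *mt-Th* (0.17) and *Pla2g6* (-0.08) were likewise near 0 there. In *Brd1*+/- vehicle mice *Malat1* lay between 637 and 1031 TPM, above every one of the 16 WT drug libraries. The meningeal list had a median of -0.09 in *Brd1*+/- mice.

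*Brd1* itself did not pass a p of 0.05 on the TPM scale, and this depended on the scaling and on single libraries. It had 24.9, 33.1 and 39.3 TPM with FLX and 31.9, 37.3 and 41.0 TPM with IMN, against a vehicle median of 37.9 TPM. The log2 difference was -0.17 (exact permutation p = 0.0502 over 12870 arrangements, adjusted p = 0.151 over 3 tests), and 3 of 8 FLX libraries lay under the lowest IMN library. With the median-ratio scaling the log2 difference was -0.23 (exact permutation p = 0.00451, unadjusted).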

How the data were processed

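Gene-level TPM of 48 amygdala libraries were used, of which 16 enter the main comparison. The authors aligned reads with HISAT2 2.1.0 to GRCm38 and quantified genes with StringTie 1.3.4, and the values they deposited are TPM. FastQC and Trimmomatic are also named in their processing notes. Annotation release, filters and strand setting of the deposited table were checked only as far as the methods state them, so overlapping, antisense and near-identical genes are uncertain. TPM hold no depth, and no counting interval was computed. The members, gene lists and tests were chosen with earlier results of these data known.

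Groups and doses were taken from the sample labels. Symbols, classes and 1-based coordinates came from GENCODE M21 on GRCm38, where 52489 of 52636 gene IDs (99.7%) were found. Genes entered a fit where 8 or more of its libraries reached 0.1 TPM. Values were transformed to log2(TPM + 0.1), which understates differences of low genes, and fitted with limma 3.58.1 (R 4.3.3), eBayes with a trended prior, two-sided, on the compared groups alone, with Benjamini-Hochberg adjustment over all genes tested. Unless given otherwise the adjusted p of a named WT gene is 0.858 or above. The count test of the study was not used because TPM are not counts. Single values were compared with two-sided exact permutation tests over all arrangements of the libraries (Python 3.11.15). The p-values measure the spread between the 8 libraries of a group, which are labelled as separate samples. The code was tested on simulated data.

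Named genes were, among genes whose higher group averaged 1 TPM or more, the 10 per direction with the smallest p and the 3 per direction with the largest difference at an unadjusted p under 0.01, the drug targets and *Brd1*, and in each list up to 3 tested genes with the smallest p. Others are marked as chosen after their values were seen. Alternatives were other pseudocounts (0.01 and 1), filters, scalings and priors, a replicate block, a term for and a split by the sample codes, marker covariates, 1 fit of all 48 libraries and leaving out each library. Leaving out IMN replicates 2 and 8 together and the test between code ranges were added after seeing the data. Results that need certain genes are not reported here.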

Additional observations from a re-analysis of the deposited data

Results flagged for a closer look

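In 22 of 301 sets of 8 libraries examined (7.31%) the highest or lowest library stood apart from the other 7, by a gap of over 0.526 of the range on the log2 scale. Chance alone gives about 1 in 20 such sets where the values are normal and the sets independent. These sets are not, since some genes recur in list sums and *Slc6a2* was at 0 in 7 libraries of each group. The flagged share is therefore not comparable with 1 in 20.

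FLX replicate 6 accounted for 8 of them. It was high in *Nr4a2* (20.9 TPM), *Hbb-bs* (311 TPM), *Hba-a1* (217 TPM), *Ptgds* (4541 TPM), the red blood cell list (979 TPM summed) and the meningeal list (4775 TPM summed), and low in the patterning list (91.9 TPM summed). It was also the 1 FLX library with *Slc6a2* above 0 (0.236 TPM), while the 1 such IMN library was replicate 5 (0.108 TPM).

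Choroid plexus RNA set apart FLX replicate 2 (*Ttr* 8383 TPM, list 10568 TPM summed) and IMN replicate 1 (*Ttr* 1193 TPM, list 1502 TPM summed). *Gm28043* was high in FLX replicate 8 (9.66 TPM) and low in IMN replicate 6 (4.99 TPM), where *Gm24325* was listed at 0. *Gm20716* was listed at 0 in FLX replicate 4, whose nuclear-retained noncoding RNAs summed to 2749 TPM, the lowest of its group. *Gjb6* was low in FLX replicate 8 (74.8 TPM). *Bmp4* (6.65 TPM) and *Csf1r* (80.5 TPM) were high in IMN replicate 3, and *Ocln* was low in IMN replicate 2 (2.13 TPM).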

How the results depend on the processing

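The count of genes at an adjusted p under 0.05 between FLX and IMN in WT mice stayed at 0 under the other pseudocounts, filters, scalings and priors, in 1 fit of all 48 libraries, with a term for the sample codes, with marker covariates and without any single library (0 to 0). It was 2 in the lower range of sample codes alone (*Gm20716*, 8.55, and the pseudogene *Gm14421*, -4.22, which was 1.60 in the higher range and was chosen after its values were seen) and 2 in the higher range (*mt-Tl2*, -1.61, and *mt-Th*, -1.89). The smallest limma adjusted p, 0.858 in the main fit, ran from 0.0593 (without FLX replicate 8) to 0.9997 (without IMN replicate 2) over single libraries left out. In 1 fit of all 48 libraries the smallest was 0.129. The share of tested genes at an unadjusted p under 0.01, 0.719%, was 0.597% in multi-exon protein-coding genes alone, 1.74% with 4 marker lists as covariates, 0.40% in the lower range, 0.396% without IMN replicates 2 and 8 (42 genes higher in FLX) and 0.455% to 1.21% without single libraries. It was 0.455% without IMN replicate 2, 1.21% without IMN replicate 3 and 1.13% without IMN replicate 4. These genes split as 64 higher in FLX and 86 higher in IMN with the median-ratio scaling and 69 and 93 with quantile normalization. In *Brd1*+/- mice the adjusted count was 0 to 1 without single libraries (1 without IMN replicate 5) and the unadjusted share 0.344% to 0.619%, or 0.37% with a filter of 1 TPM. For the interaction the adjusted count was 0 to 1 (1 without WT IMN replicate 7) and 1 with an untrended prior, and the unadjusted share 0.591% to 1.04%, or 0.608% with the 1 TPM filter. The causes were not tested.

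Replicate numbers did not pair the samples (r of deviations -0.265 to 0.208, 3 of 8 over 0.1, 0 FLX libraries closest to their own number). With the replicate block there were 0 genes at an adjusted p under 0.05 and 0.617% at an unadjusted p under 0.01 in WT mice, 0 and 0.645% in *Brd1*+/- mice, and 0 and 0.852% for the interaction.

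*Brd1* had an exact permutation p under 0.05 with the median-ratio scaling (-0.23) and without FLX replicate 7 or 8 or IMN replicate 2 or 8, with differences of -0.21 to -0.11 over single libraries left out. Genes above 0 differed by -346.5 to -54.3 and the share of the 100 highest genes by -1.80 to -0.55 percentage points.

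Of 1880 single-gene values with 1 library left out, 1 changed sign (*Htr2a*, -0.51 to 0.018 over the 16, the highest without IMN replicate 8). Of 1736 under other alternatives, 30 changed sign. Without IMN replicates 2 and 8 these were *Htr2a* 0.27, *Htr2c* -0.038, *Adra1a* -0.0085, *Adra2c* 0.11, *Drd2* 0.11, *Drd1* 0.25, *Dusp4* -0.046, *Grin3a* -0.045, *Rasd2* 0.20, *Pdgfra* -0.012, *Olig1* -0.029 and *Prlr* -0.25. In the lower range they were *Htr2a* 0.21, *Adra1a* -0.19, *Ddc* -0.63, *Adra1b* 0.16, *Sdf2l1* -0.021, *Gabre* -0.11, *Rspo2* 0.33, *Neurod6* 0.26, *Clic6* -0.55, *Mirg* -0.035, *Rian* -0.012 and *mt-Ts2* 0.058, and in the higher range *Drd5* 0.073 and *Cldn5* -0.0075. With marker covariates they were *Htr2a* 0.063, *Chrm1* 0.10 and *Drd1* 0.090. TPM hold no depth, so what the depth of each library could have shown is unknown.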
